A study of Mus musculus with 26 samples.

Results

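Cluster 6 is a group of cells from mouse RPE/choroid, the retinal pigment epithelium (RPE) with the vascular layer beneath it, that the study's authors annotated as stromal cells. Its members were taken from the deposited cell annotation, which gives a cluster number to every cell and was made by the authors from the expression of the same cells. The cell numbers of the deposited annotation, used here as it stands, are not identical with those stated by the study. It held 1144 of 7565 cells: 541 of 3637 cells in the B6129PF1/J library and 603 of 3928 cells in the C57BL/6J library. That is 14.9% (95% interval 13.7 to 16.1%) and 15.4% (14.2 to 16.5%) of the cells. The cells came from 90-d-old mice of the strains B6129PF1/J and C57BL/6J, with 1 scRNAseq library for each strain. Each library pooled an eye of a male and an eye of a female, and live nucleated cells were sorted before they were captured in droplets. The series also holds bulk RNAseq, of which 2 experiments are used here. In one, RPE/choroid of 6-month-old C57BL/6J mice was compared between *Ihh* +/+ controls and *Ihh* iΔEC/iΔEC mice, with 3 mice each. All of these mice received tamoxifen 12 weeks before tissue was taken, and both genotypes carried Cre-ERT2 under the endothelial *Cdh5* promoter, so the deletion was directed at endothelial cells (ECs) and not at cluster 6. In the other, GLI1+ cells sorted from the choroid of *Gli1* GFP/+ mice were expanded in culture and kept in low serum overnight. They were then given the Hedgehog pathway agonist SAG at 100 nM or the vehicle DMSO for 24 h, with 3 cultures each. The strain background is given as SWR/J, and the study states that these animals were outcrossed with BALB/c mice. *Gli1* GFP/+ cells carry GFP at the *Gli1* locus.

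Pericytes are mural cells that lie on capillaries within the basement membrane they share with ECs. ECs secrete PDGF-B, which signals through the receptor encoded by *Pdgfrb* and keeps pericytes on the vessel, and endothelial Notch ligands act on *Notch3* in mural cells. Vascular smooth muscle cells wrap arteries and larger veins and contract through smooth muscle actin and myosin, whereas fibroblasts lie outside the vessel wall and deposit interstitial collagen and proteoglycans. In the choroid, the capillaries that need pericytes are those of the choriocapillaris, which supplies the outer retina.

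UMIs (unique molecular identifiers, each marking 1 captured transcript) were summed over the cells of a cluster in each library and scaled to 10,000 UMIs of all genes. Cluster 6 held 2042712 UMIs in the B6129PF1/J library and 1901048 in the C57BL/6J library, with medians of 3595 and 2870 UMIs a cell. The ranges in parentheses are exact 95% intervals (Poisson for levels, Clopper-Pearson for shares of cells) and cover counting error only. With 1 library per strain no test between animals was possible. The clusters were also made from these same counts, so a difference between clusters is a description of size. A gene was counted as higher when its level was at least 2 times that of the cluster or clusters compared in both libraries, with at least 30 UMIs in the higher cluster. Mitochondrial genes took 3.40% and 3.29% of the UMIs of the median cell of cluster 6, and 22 cell barcodes occurred in both libraries, of which 1 was in cluster 6 of both. Cells with both *Xist* and *Ddx3y* (transcripts of female and of male cells), over 10000 UMIs, or at least 3 UMIs of 6 EC genes made up 2.59% of cluster 6 in B6129PF1/J and 4.15% in C57BL/6J. These doubtful cells were kept. Without them 314 genes were higher than in the other stromal clusters (the comparison given further on), among them 300 of the 310 found with them, and values that they moved are given both ways.

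The markers of the label were compared first with the other stromal clusters (5, 7 and 8) and smooth muscle cluster 9. *Pdgfrb*, the PDGF receptor of mural cells, had 6.90 (6.54 to 7.27) UMIs per 10,000 in cluster 6 of B6129PF1/J and 5.90 (5.56 to 6.25) in C57BL/6J. Its level in clusters 5, 7, 8 and 9 was 3.25, 2.19, 2.53 and 2.61 in B6129PF1/J and 2.67, 1.5, 2.20 and 1.94 in C57BL/6J. Cluster 6 was therefore 2.12 (1.96 to 2.31) and 2.21 (2.01 to 2.43) times the next stromal cluster, and no other of the 13 clusters reached 50% of its level in either library. *Rgs5*, a regulator of G protein signaling that marks mural cells, had 95.9 and 93.0 in cluster 6 but also 92.4 and 99.3 in cluster 9. It was 9.36 and 8.92 in cluster 7 and below 1 in clusters 5 and 8, so *Rgs5* set cluster 6 apart from the stroma and not from smooth muscle. *Lamc3*, a laminin chain of vascular basement membranes, had 1.24 (1.10 to 1.41) and 0.931 (0.799 to 1.08) in cluster 6. Cluster 5 followed closely with 0.992 and 0.614, and the ratio of 1.25 (1.06 to 1.48) and 1.52 (1.22 to 1.88) was under 2-fold, while the level in cluster 9 was 0.135 and 0.0781. Of 11 pericyte markers, 10 passed the rule over clusters 5, 7 and 8, beside 4.94% of all genes tested, and *Lamc3* was the exception. They are part of a longer list of 25 pericyte genes, of which 19 passed. *Anpep*, *Cd248*, *Gper1*, *Tbx18* and *Foxf2* of that list did not pass either. The label pericyte-like thus fits 10 of the 11 markers and 19 of the 25 genes against the stroma, and *Lamc3* is shared with cluster 5. Against cluster 9 it fits fewer of the 11. There *Rgs5*, *Cspg4*, *Notch3* and *Higd1b* did not pass as higher in cluster 6, and *Mcam* was lower in cluster 6.

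**Figure D1:**
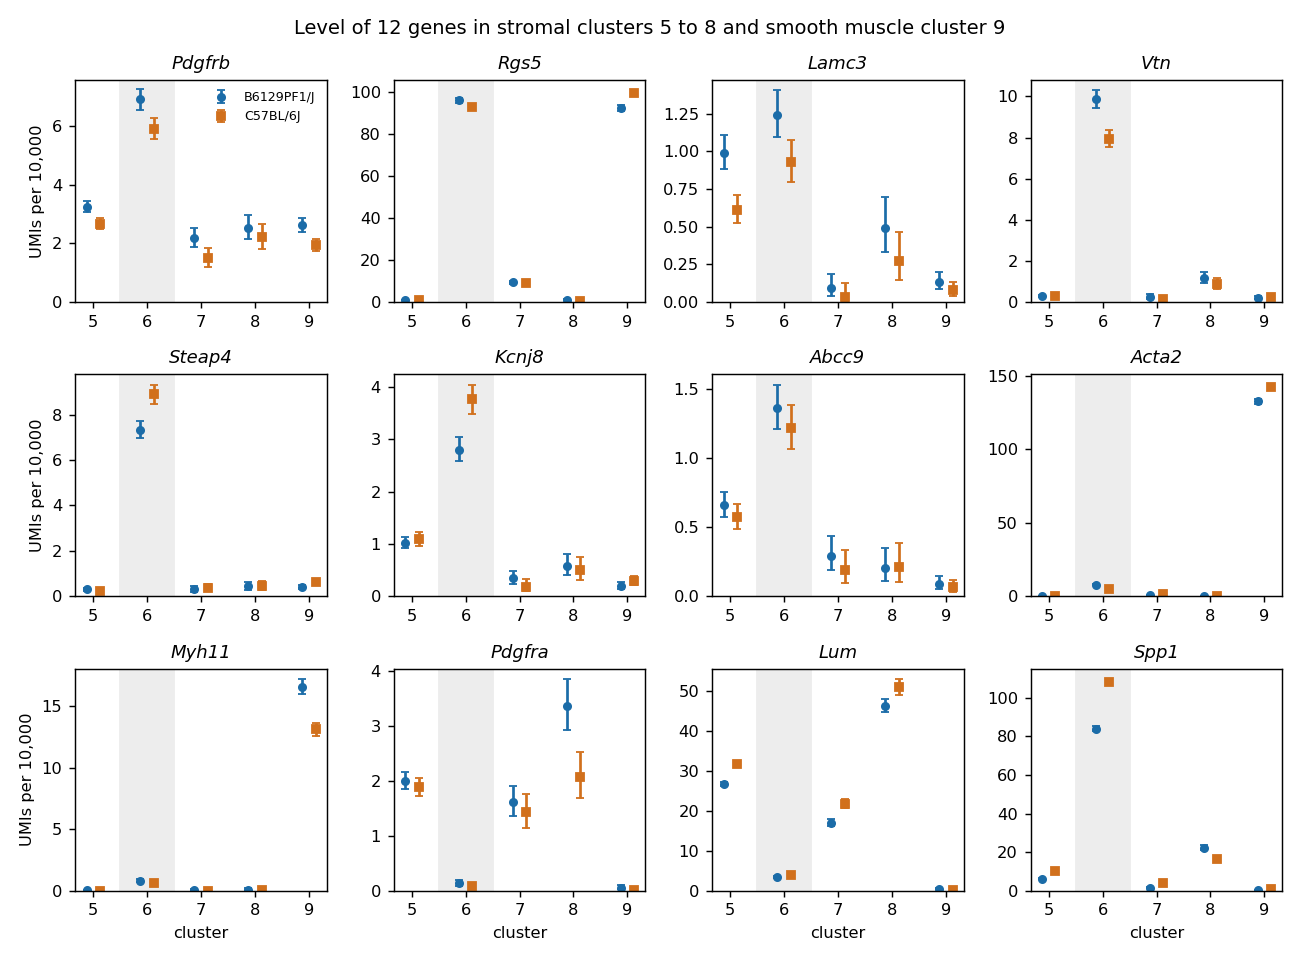
Level (UMIs per 10,000, linear axes that differ between panels) of 12 genes in clusters 5 to 9 of the B6129PF1/J library (blue circles) and the C57BL/6J library (orange squares), with exact Poisson 95% intervals and cluster 6 on grey. *Pdgfrb*, *Vtn*, *Steap4*, *Kcnj8*, *Abcc9* and *Spp1* peak in cluster 6, *Rgs5* is as high in cluster 9, *Acta2* and *Myh11* peak in cluster 9, and *Pdgfra* and *Lum* are low in clusters 6 and 9.

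Markers of the neighbouring cell types were mostly low. *Pdgfra*, the PDGF receptor of fibroblasts, had 0.137 and 0.0894 in cluster 6, against at least 1.43 in clusters 5, 7 and 8 of both libraries. A *Pdgfra* UMI was found in 4.07% and 2.32% of cells of cluster 6 and in 2.83% and 3.94% of the hematopoietic cells of cluster 11, which should lack the gene and have medians of 5047.5 and 3977 UMIs. The share in cluster 6 was thus below this background in C57BL/6J and above it in B6129PF1/J, where 22 of 541 and 3 of 106 cells had a UMI and the interval of cluster 11 reached 8.05%. Thinned to 1700 UMIs in every cell, the shares were 2.22% and 0.66% in cluster 6 and 0.94% and 2.36% in cluster 11. *Acta2* (smooth muscle actin) had 7.88 and 5.18 in cluster 6 and 132 and 142 in cluster 9. An *Acta2* UMI was found in 35.1% and 29.7% of cells of cluster 6, in 99.2% and 98.9% of cluster 9 and in 14.2% and 11% of cluster 11, and after thinning in 27.0% and 24.2% of cluster 6 and 5.66% and 5.51% of cluster 11. *Pdgfrb* was detected in 86.7% and 82.9% of cells of cluster 6 (66.2% and 65.0% after thinning), against 5.66% and 5.51% of cluster 11 (2.83% and 2.36%). *Rgs5* and *Pdgfrb* were found together in 84.5% of the B6129PF1/J cells and 80.9% of the C57BL/6J cells. The summed level of 6 blood cell markers was 0.201 and 0.531, that of 5 melanocyte markers 0.25 and 0.494, that of 6 Schwann cell markers 0.230 and 0.316, that of 3 rod markers 0.0832 and 0.0316 and that of 2 hemoglobin genes 0.0049 and 0. The 6 RPE markers summed to 9.89 in cluster 6 of B6129PF1/J, where clusters 5, 7, 8 and 9 had 5.30 to 18.3. In C57BL/6J they summed to 13.4, above the 4.47 to 9.33 of those clusters.

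Against the stroma, 310 of 6278 genes with enough UMIs (4.94%) were higher in cluster 6 than in each of clusters 5, 7 and 8, and 127 of 2653 genes (4.79%) were lower than in each. Of the 310 genes, 106 (34.2%) were also higher than in cluster 9, 51 (16.5%) were lower than in cluster 9, and 153 (49.4%) were neither. The last group includes 121 genes within 2-fold of cluster 9 in both libraries. Cluster 6 had the highest level of all 13 clusters for 105 of the 310 genes, and for 33 of these it was at least 2-fold above every other cluster in both libraries, among them *Steap4*, *Vtn*, *Spp1*, *Ebf1* and *Pdgfrb*. The 310 genes were already chosen as higher than clusters 5, 7 and 8, which favors such counts. The same share over all genes tested was not counted. At the limit of the rule, *Gpcpd1* was just inside with 2.01-fold and *Rassf4* just outside with 1.99-fold.

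The genes with the largest fold over the stroma fell into shared and separate mural genes. Those shared with smooth muscle include *Gja4* (connexin 37, a gap junction protein of vessel walls), with 3.61 and 3.91 in cluster 6, at most 0.127 in clusters 5, 7 and 8, and 4.72 and 4.38 in cluster 9. *Higd1b*, a hypoxia-inducible domain family gene used as a pericyte marker, had the largest fold, with 2.77 and 4.16 in cluster 6, at most 0.136 in the other stromal clusters and 1.85 and 1.89 in cluster 9. *Tinagl1*, a matricellular protein of basement membranes, had 4.80 and 4.34 in cluster 6 and 6.61 and 7.11 in cluster 9. *Itga7* (a laminin-binding integrin), *Trpv2* (a cation channel), *Esam* (a junctional adhesion molecule), *Rasl12*, *Rgs4*, *Grb14*, *Ephx3* and *Inpp4b* were likewise within or near 2-fold of cluster 9. *Sncg* (gamma-synuclein) and *Pcp4l1* belonged to the genes higher in smooth muscle: *Sncg* had 2.73 and 1.96 in cluster 6 and 5.75 and 5.40 in cluster 9.

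Others of the 20 largest folds were lower in cluster 9 as well. *Steap4*, a metalloreductase of iron and copper, had 7.33 (6.97 to 7.71) and 8.89 (8.47 to 9.32) in cluster 6 and 0.411 and 0.653 in cluster 9, and was found in 79.7% and 82.1% of cells (59.9% and 71.3% after thinning), against 1.89% and 3.15% of cluster 11 (0.94% and 0.79%). *Tusc5* had 1.40 and 1.81 in cluster 6, at most 0.0633 in the other stromal clusters and 0.439 and 0.268 in cluster 9. *Adap2*, an ArfGAP family gene, had 1.53 and 1.77 in cluster 6, at most 0.113 in the other stromal clusters and 0.501 and 0.418 in cluster 9.

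Of 25 pericyte genes with a row in the tables, 19 were higher than in the stroma, 0 were lower, 14 were higher than in cluster 9 and only *Mcam* was lower than there. Over all genes tested these shares were 4.94%, 4.79%, 12.8% and 7.48%. The median log2 fold of the list over the highest other stromal cluster was 2.39 and 2.29, against -0.24 and -0.25 over all genes with at least 100 UMIs in clusters 5 to 9. *Vtn* (vitronectin, an adhesive glycoprotein) had 9.86 (9.43 to 10.3) and 7.94 (7.54 to 8.35), with 1.15 and 0.858 in cluster 8 and 0.197 and 0.223 in cluster 9. *Kcnj8* and *Abcc9*, which encode the pore and the sulfonylurea receptor of the vascular ATP-sensitive potassium channel, lie next to each other on chromosome 6 (16247 bases apart) and went together. *Kcnj8* had 2.81 and 3.76 in cluster 6, 1.02 and 1.09 in cluster 5 and 0.203 and 0.301 in cluster 9. *Abcc9* had 1.36 and 1.22 in cluster 6, 0.658 and 0.574 in cluster 5 and 0.0901 and 0.067 in cluster 9. Both channel subunits thus separated cluster 6 from smooth muscle by more than 12-fold but from cluster 5 by only 2.07- to 3.45-fold. *Ifitm1* (an interferon-induced membrane protein) had 10.4 and 9.71 against 0.332 and 0.446 in cluster 9, *Ndufa4l2* (a mitochondrial protein induced by hypoxia) 14.5 and 14.5 against 4.14 and 4.32, and *Art3* 2.48 and 3.23 against 0.214 and 0.363. *Art3* was not particular to mural cells, since Schwann cluster 13 had 12.8 in both libraries. *Cspg4* (NG2 proteoglycan) was 0.538 and 0.468 in cluster 6 and 0.907 and 0.586 in cluster 9, and *Des* (desmin) was 6.11 and 5.25 and passed neither comparison because cluster 5 had 3.70 and 2.95 and cluster 9 had 5.78 and 5.84. *Anpep*, *Cd248*, *Tbx18* and *Foxf2*, also used as pericyte markers, exceeded cluster 9 only, and at least 1 other stromal cluster had a higher level of each in both libraries.

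Promoters are shown for 4 genes that stand for these patterns, each with the motif of a factor known from mural cells. *Vtn* was higher than in stroma and smooth muscle, and so was *Abcc9*, whereas *Tinagl1* was shared with smooth muscle and *Myl9* was highest there. Each sequence is the 250 bases before the RefSeq start of the gene on GRCm38.p6, read 5′ to 3′ on the gene's strand. The capitals mark TGGGAA, the core bound by the Notch effector RBPJ, in *Vtn* (chr11:78498870-78499119, + strand) and *Abcc9* (chr6:142702275-142702524, - strand), the EBF motif (TCCC and GGGA with 2 free bases between) in *Tinagl1* (chr4:130175123-130175372, - strand) and the CArG box of serum response factor in *Myl9* (chr2:156775214-156775463, + strand).
Vtn: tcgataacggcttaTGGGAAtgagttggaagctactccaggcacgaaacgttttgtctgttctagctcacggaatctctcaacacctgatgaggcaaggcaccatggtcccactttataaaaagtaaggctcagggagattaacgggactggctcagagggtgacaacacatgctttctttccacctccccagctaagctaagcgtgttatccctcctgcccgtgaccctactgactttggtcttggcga
Abcc9: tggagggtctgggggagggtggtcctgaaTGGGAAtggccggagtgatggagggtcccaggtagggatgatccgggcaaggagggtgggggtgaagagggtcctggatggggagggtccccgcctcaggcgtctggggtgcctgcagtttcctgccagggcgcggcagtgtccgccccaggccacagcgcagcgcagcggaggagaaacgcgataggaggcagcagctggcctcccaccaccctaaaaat
Tinagl1: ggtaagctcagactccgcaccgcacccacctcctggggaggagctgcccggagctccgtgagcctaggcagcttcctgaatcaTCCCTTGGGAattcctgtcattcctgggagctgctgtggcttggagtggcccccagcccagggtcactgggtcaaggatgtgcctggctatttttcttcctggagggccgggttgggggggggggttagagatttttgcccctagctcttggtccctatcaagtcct
Myl9: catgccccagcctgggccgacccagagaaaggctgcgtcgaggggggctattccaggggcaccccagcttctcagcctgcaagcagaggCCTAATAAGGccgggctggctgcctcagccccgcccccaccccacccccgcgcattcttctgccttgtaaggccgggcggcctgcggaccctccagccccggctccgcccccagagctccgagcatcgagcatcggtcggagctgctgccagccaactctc
Both strands of the same window were searched for all 27025 promoters of the table, and 227 of the 310 genes higher than in the stroma matched an entry. The RBPJ core was in 30.4% of these 227 and 24.1% of all promoters, the EBF motif in 3.08% (7 promoters) and 0.914%, and the CArG box in 3.08% (7 promoters) and 1.62%. Of the 407 genes lower than in cluster 9, 306 matched, and 24.5% held the RBPJ core, 2.29% the EBF motif and 5.23% a CArG box. Of the 127 genes lower than in the stroma, 91 matched, with 23.1%, 0% and 1.10% in the same order. The share over the promoters of the genes tested was not counted. A match describes the letters only, and no binding was measured.

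The contractile program of smooth muscle was present at a low level. Of 20 smooth muscle genes, 8 were higher in cluster 6 than in the stroma, and 17 were lower than in cluster 9, with a median log2 fold against cluster 9 of -2.24 and -2.46. Over all genes tested, 4.94% were higher than in the stroma and 407 of 5443 (7.48%) were lower than in cluster 9. *Myh11*, the smooth muscle myosin heavy chain, had 0.798 and 0.605 in cluster 6, at most 0.0949 in the other stromal clusters and 16.6 and 13.1 in cluster 9. *Tagln* (transgelin) had 4.28 and 2.64 against 38.9 and 39.0, and *Myl9*, the regulatory myosin light chain, had 20.9 and 17.2 against 81.0 and 75.9. The tropomyosins *Tpm1* and *Tpm2* had 8.54 and 6.96 and 10.2 and 9.06, between the stroma (at most 2.98) and cluster 9 (at least 31.0). *Cnn1* (calponin), by contrast, had 1 UMI in cluster 6 of each library against 481 and 364 in cluster 9, a ratio of 0.00181 (4.56e-05 to 0.0101) and 0.00259 (6.54e-05 to 0.0145). *Pln* (phospholamban, which restrains the calcium pump of the sarcoplasmic reticulum) had 9 and 3 UMIs against 1272 and 734. The next lowest against cluster 9 were *Timp4*, *Atcayos*, *Ptgis* (prostacyclin synthase), *Ldb3*, *2210407C18Rik*, *Sh3bgr*, *Fbxl22* and *Susd5*, none of which exceeded 0.0736 in cluster 6. *Myocd*, the coactivator that drives smooth muscle genes, was 0.0147 and 0.00526 in cluster 6 and 0.366 and 0.312 in cluster 9.

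In the other direction, 802 of 6278 genes (12.8%) were higher in cluster 6 than in cluster 9, and 696 of these were not higher than in the stroma. *Spp1* (osteopontin, a secreted phosphoprotein) led, with 84.1 (82.9 to 85.4) in B6129PF1/J and 108 (107 to 110) in C57BL/6J against 0.338 and 0.976 in cluster 9. Among stromal clusters, cluster 8 came next with 22.4 and 16.3. An *Spp1* UMI was found in 80.0% and 85.9% of cells of cluster 6, against 11.3% and 9.29% of cluster 9 and 17.0% and 18.9% of cluster 11. After thinning these were 76.5% and 84.2%, 4.83% and 5.62%, and 5.66% and 11% in the same order. *Lgi1*, a secreted leucine-rich repeat protein, had 1.22 and 1.09 in cluster 6 and at most 0.188 in clusters 5, 7 and 8. In cluster 9 it had 0 UMIs in B6129PF1/J, so cluster 6 was at least 72.4-fold higher. In C57BL/6J cluster 9 had 2 UMIs, a ratio of 97.6 (26.7 to 811). *Coch* (cochlin, an extracellular matrix protein) had 2.17 and 2.97 in cluster 6, 0.803 and 1.57 in cluster 5 and 0.0282 and 0.0391 in cluster 9. *Svopl*, *Plxdc1*, *Pla1a*, *Gm5127*, *Plac8*, *Meig1*, *Col10a1*, *Cysltr1*, *Matn2*, *Ccl11* and *Vtn* were also among the 15 largest folds. *Plxdc1* and *Cysltr1* (a leukotriene receptor) were at least as high in cluster 5 as in cluster 6 and so belonged to stroma at large.

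Of 20 fibroblast genes, 12 were lower than in the rest of the stroma, beside 4.79% of all genes tested, 0 were higher, and the median log2 fold against the highest stromal cluster was -4.22 and -4.53. *Dcn* (decorin, a collagen-binding proteoglycan) had 12.0 and 10.3 in cluster 6, at least 45.2 in clusters 5, 7 and 8, and 0.901 and 1.20 in cluster 9. *Lum* (lumican) had 3.43 and 3.83 in cluster 6, at least 17.1 in the other stromal clusters and 0.479 and 0.268 in cluster 9. Both lay between the other stromal clusters and smooth muscle, and 8 of the 20 genes were higher than in cluster 9, beside 12.8% of all genes tested. Summed over the list, fibroblast genes took 40.4 and 33.9 UMIs per 10,000 in cluster 6, between 145 and 415 in clusters 5, 7 and 8, and 10.3 and 10.7 in cluster 9. The 10 genes lowest against the stroma were *Mfap4* (a microfibril protein), *Prrx2* (a homeobox factor), *Cldn11* (a claudin), *Clmp*, *Scara5* (a ferritin receptor), *Tspan11*, *Crym*, *Mmp2* (a gelatinase), *Pdgfra* and *Lbp*. *Mfap4* had 0.113 and 0.0894 in cluster 6 and at least 2.35 in the other stromal clusters, and *Cldn11* had 0.0392 and 0.0473 against at least 0.907.

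Of 23 basement membrane genes with a row, 4 were higher than in the stroma, 1 was lower, 9 were higher than in cluster 9 and 2 were lower than there, beside 4.94%, 4.79%, 12.8% and 7.48% of all genes tested. The 4 higher ones were all collagen IV chains (*Col4a1*, *Col4a2*, *Col4a3* and *Col4a4*), and each was also higher than in cluster 9. *Col4a1*, a chain found in every basement membrane, had 2.97 and 1.81 in cluster 6, 1.28 and 0.879 in cluster 8 and 0.682 and 0.457 in cluster 9. *Col4a3* and *Col4a4*, chains of the collagen IV network with a restricted distribution, had 0.313 and 0.342 and 0.538 and 0.526 in cluster 6, and at most 0.0949 and 0.129 in the other 4 clusters. *Sparc*, a collagen-binding glycoprotein, had 64.2 and 55.9 in cluster 6 and 32.1 and 29.8 in cluster 7, just under the rule. *Col15a1* was lower than in every other stromal cluster (0.0392 and 0.0999 against at least 0.183), and *Lama5* and *Sparcl1* were higher in cluster 9. Of 35 other matrix genes, *Postn* (periostin) and *Aspn* (asporin) were higher than in the stroma and in cluster 9: *Aspn* had 14.1 and 15.4, at most 3.49 in the other stromal clusters and 6.88 and 7.29 in cluster 9. *Loxl1*, *Fbln5* and *Mfap2*, which serve elastic fibers, were lower than in the stroma. *Mgp* (matrix Gla protein, an inhibitor of calcification) had 156 and 133, with at most 105 and 98.3 in the other stromal clusters and 15.2 and 12.2 in cluster 9.

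Signaling genes were ordered by role. Among receptors, 5 of 26 (*Pdgfrb*, *Notch3*, *Ednra*, *Itga1* and *Itga7*) were higher than in the stroma and *Pdgfra*, *Fgfr1* and *Egfr* were lower. Over all genes tested these shares were 4.94% and 4.79%, and 15 of the 26 had 30 UMIs in cluster 6 of both libraries. *Notch3* had 4.04 and 3.08 in cluster 6, at most 0.633 in the other stromal clusters and 3.77 and 2.54 in cluster 9. Its targets did not follow 1 order: *Heyl* had 3.56 and 3.23 in cluster 6 and 1.41 and 1.13 in cluster 9, *Nrarp* had 1.37 and 1.30 against 3.16 and 2.86, and *Hey2* had 0.132 and 0.0894 against 0.518 and 0.407. Of 6 Notch targets with a row, 4 had 30 UMIs in cluster 6 of both libraries, and *Heyl* and *Nrarp* were higher than in the stroma. Of 44 secreted factors, 23 had 30 UMIs in cluster 6 of both libraries. Of the 44, 5 were higher than in the stroma and *Wnt5a* was lower (4.94% and 4.79% over all genes tested), and 10 were higher and 4 lower than in cluster 9 (12.8% and 7.48%). *Il34*, a ligand of the macrophage receptor CSF1R, had 2.92 and 3.05 in cluster 6, at most 0.357 in the other stromal clusters and 0.896 and 0.926 in cluster 9. *Angpt2*, the context-dependent antagonist of the endothelial receptor TIE2, had 1.87 and 1.39 in cluster 6, at most 0.337 in the other stromal clusters and 0.225 and 0.430 in cluster 9. *Bdnf*, *Jag1* and *Pdgfa* were the other 3. The Notch ligand *Jag1* was close to its level in cluster 9 (1.20 and 1.69 against 1.04 and 1.69), and *Pdgfa* had 1.15 and 1.04 in cluster 6 against 2.21 and 1.93 in cluster 9.

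Genes of vascular tone gave 14 of 53 higher than in the stroma, 0 lower, 9 higher than in cluster 9 and 6 lower than there. Over all genes tested these shares were 4.94%, 4.79%, 12.8% and 7.48%, and 26 of the 53 genes had 30 UMIs in cluster 6 of both libraries. The receptor for nitric oxide, soluble guanylate cyclase, is encoded by *Gucy1a3* and *Gucy1b3*, which had 7.08 and 6.02 and 5.65 and 5.70 in cluster 6, at most 2.16 and 0.970 in the other stromal clusters, and 4.92 and 4.11 and 3.38 and 3.59 in cluster 9. *Pde4d*, which degrades cyclic AMP, was higher in cluster 6 (3.00 and 4.57) than in cluster 9 (0.659 and 1.14), and *Pde3a*, which degrades it too, was lower (1.05 and 0.921 against 5.44 and 4.11). *Adora2a*, *Adora2b* (receptors for adenosine) and *Avpr1a* (for vasopressin) passed against both, at levels of 0.259 to 1.23. *Agtr1a*, the receptor of angiotensin II, had 2.44 and 1.64 in cluster 6, 1.64 and 0.989 in cluster 5 and 0.163 and 0.067 in cluster 9, so it was higher than in smooth muscle only. The calcium-activated potassium channel subunits *Kcnma1* and *Kcnmb1* and the ATP receptor *P2rx1* were close to absent from cluster 6 (at most 0.0392) and had 0.237 to 0.761 in cluster 9. Potassium channels thus divided the mural clusters by gene: *Kcnj8* and *Abcc9* in cluster 6, *Kcnma1* and *Kcnmb1* in cluster 9, with *Kcnk3* in both (0.690 and 0.316 against 0.851 and 0.591).

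Of 53 transcription factors with a row, *Foxs1*, *Ebf1*, *Ebf2*, *Mef2c*, *Epas1* and *Heyl* were higher than in the stroma and *Meox1*, *Prrx2* and *Klf2* were lower. Over all genes tested these shares were 4.94% and 4.79%, and 29 of the 53 had 30 UMIs in cluster 6 of both libraries. *Ebf1*, an early B cell factor also found in adipose and mural cells, had 15.4 and 15.2 in cluster 6, at most 5.47 in the other stromal clusters and 7.27 and 6.78 in cluster 9. *Mef2c* went the other way against smooth muscle (2.35 and 2.11 in cluster 6, 8.09 and 7.84 in cluster 9), and 11 further factors, among them *Srf*, *Tbx2* and *Klf4*, were lower than in cluster 9 (7.48% over all genes tested), while 8 were higher than there (12.8%). *Klf2*, a flow-responsive factor that also responds to handling of cells, had 3.74 and 6.21 in cluster 6, at least 13.0 in the other stromal clusters and 9.59 and 11.3 in cluster 9. Of 21 early response genes of cell dissociation, 0 passed against the stroma and 2 (*Atf3* and *Nr4a2*) were lower than in cluster 9, beside 7.48% of all genes tested. Hedgehog pathway genes gave 0 of 14 higher than in the stroma, beside 4.94% of all genes tested. Only 5 of the 14 had 30 UMIs in cluster 6 of both libraries, the minimum for a gene to count as higher. *Gli1*, a target gene of the pathway, had 0.206 and 0.174 in cluster 6, between 0.188 and 0.364 in clusters 5, 7 and 8, and 0.0338 and 0.0167 in cluster 9. A *Gli1* UMI was found in 7.58% and 5.47% of cells of cluster 6 (4.25% and 4.48% after thinning), against 0 of 106 and 0 of 127 cells of cluster 11, which allows up to 3.42% and 2.86%. Of the cells with *Gli1*, 41 of 41 in B6129PF1/J and 31 of 33 in C57BL/6J also had *Rgs5*, which was found in 96.5% and 97.8% of all cells of cluster 6. *Ptch1*, the Hedgehog receptor and also a target gene, passed no comparison between clusters. After thinning, a *Ptch1* UMI was found in 5.36% and 2.99% of cells of cluster 6. The shares were 7.03% to 10.6% in clusters 5, 7 and 8 over both libraries, and 2.41% and 2.16% in cluster 9. *Gpc3*, a Hedgehog-binding glypican, was lower than in every other stromal cluster, with 4.30 and 4.08 against at least 11.8.

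Cells of cluster 6 varied along an axis with *Rgs5* and contractile genes among those at one end. At the other end lay a mixed group that held the fibroblast genes *Lum* and *Fbln1* but also *Spp1* (r = -0.45). On the first principal component of the cells, which held 2.06% of the variance of 1000 variable genes, *Rgs5* (r = 0.73 across 1144 cells), *Tpm1*, *Myl9*, *Sncg* and *Acta2* lay at one end and *Serpine2* (r = -0.56), *Lum*, *Ramp2*, *Fbln1* and *Cxcl12* at the other. These correlations share cells and libraries and are a description, and the axis had r = 0.067 with the log of the UMIs per cell. The cells of both libraries together were cut into 5 equal bins along this axis, with 96 to 121 B6129PF1/J cells and 108 to 133 C57BL/6J cells in a bin. From the first bin to the last, *Rgs5* went from 24.8 to 169 in B6129PF1/J and from 25.4 to 166 in C57BL/6J. *Acta2* went from 0.873 to 20.8 and from 0.966 to 16.9, although in C57BL/6J the second bin, at 0.928, was no higher than the first. *Lum* went from 10.5 to 0.381 and from 12.1 to 0.599. *Pdgfrb* stayed between 5.27 and 7.69 in all bins of both libraries. *Vtn* had 4.17 and 4.05 in the bin with the most *Rgs5* and at least 6.62 in every other bin.

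**Figure D2:**
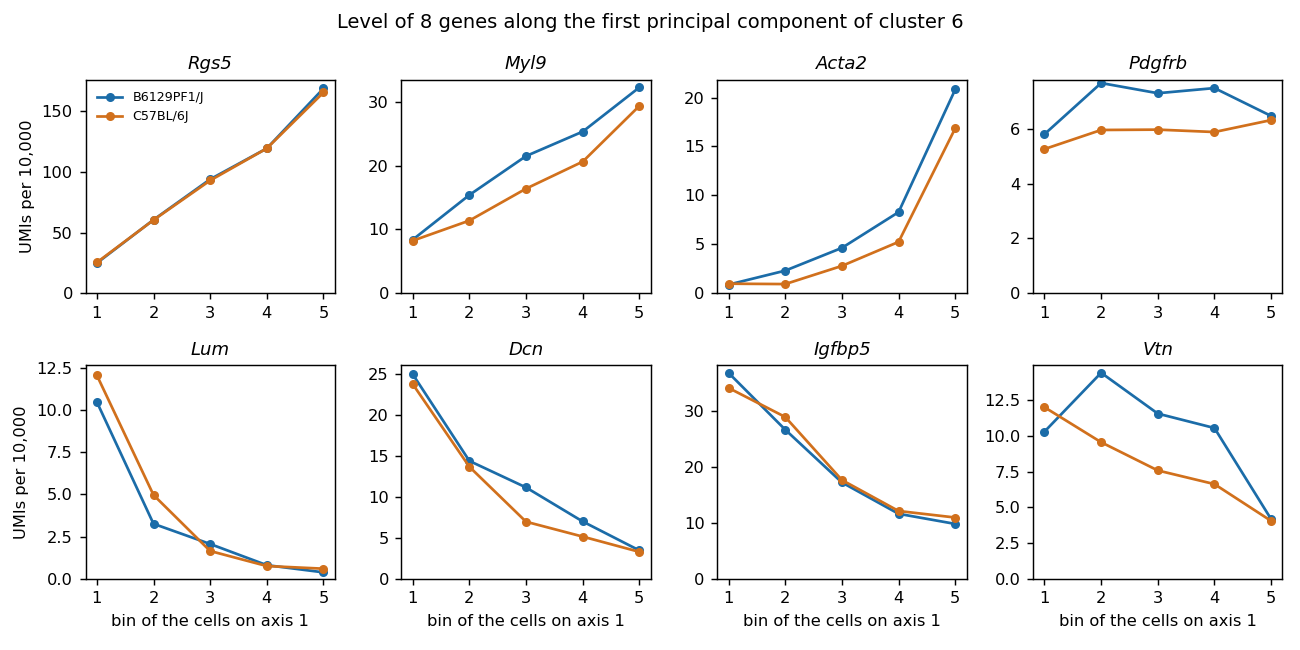
Level (UMIs per 10,000) of 8 genes in 5 bins of the cells of cluster 6 (equal over both libraries together), ordered on the x axis by the first principal component, for B6129PF1/J (blue) and C57BL/6J (orange). *Rgs5*, *Myl9* and *Acta2* are higher in the last bin than in the first (*Rgs5* at 169 and 166 against 24.8 and 25.4), *Lum*, *Dcn*, *Igfbp5* and *Vtn* are lower, and *Pdgfrb* stays between 5.27 and 7.69. The order was set with these genes among others, so their slopes are a description.

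Clustering of the 1144 cells at a resolution of 0.5 gave 5 subclusters of 452, 334, 166, 152 and 40 cells, which keep their numbers here. Subcluster 2 was led by *Adh1*, *Cxcl10*, *Fbln1* and *Lum*: it had 8.22 *Lum* and 37.5 *Rgs5*, whereas subclusters 1, 3 and 4 had 0.875 to 2.65 *Lum* and 106 to 174 *Rgs5*. Its share was 31.2% (27.4 to 35.3%) of cluster 6 in B6129PF1/J and 27.4% (23.8 to 31.1%) in C57BL/6J. Subcluster 4 was at the smooth muscle end, with 13.6 *Acta2* and 2.29 *Myh11*, but also with 13.8 *Spp1* and 1.82 *Vtn* against at least 71.6 and 6.10 in each of the others. *Tesc* led it, *Sncg* (6.41) and *Nrarp* (3.69) were highest there, and so was the early response gene *Nr4a1*, with 13.5 against 0.896 to 7.87 in the others. Subcluster 1 was led by *Colec11* and *Elmod1*, and subcluster 3 by *Fst* and *Slc38a11* with small folds (at most 2.53). Subcluster 5 was set apart by genes of other cell types: EC genes *Cldn5* (5.11) and *Plvap* (11.3) and RPE genes *Rpe65* (5.06) and *Ttr* (88.3), beside 59.5 *Rgs5*. It held 9 B6129PF1/J cells and 31 C57BL/6J cells, 22 of the 40 cells (55.0%) were doubtful cells, and its median of 4727.5 UMIs was the highest of the 5. The subclusters were given no cell type names, and their leading genes come from the counts that made them.

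The 2 libraries were close to each other in cluster 6. Of 7063 genes, 91 (1.29%) were at least 2-fold higher in C57BL/6J and 79 (1.12%) in B6129PF1/J. Without the doubtful cells these counts were 58 and 84, so that the larger count was then on the B6129PF1/J side. Strain, animals and library cannot be told apart here. Of the 310 genes higher than in the stroma, 7 were among them: *Fam110a*, *Car2*, *Stbd1* and *Cdh2* were higher in C57BL/6J, and *Lpl*, *Kcnk3* and *Tesc* in B6129PF1/J. Of these, all but *Lpl* and *Kcnk3* were named after their values were seen. *Lpl* (lipoprotein lipase) had 4.18 against 1.55, so B6129PF1/J was 2.70 (2.36 to 3.09) times higher. *Lpl* differed at least 2-fold the same way in clusters 5, 7 and 8, at levels of at most 0.495, and had 4.65 and 4.17 in cluster 9.

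The 10 largest folds were all toward B6129PF1/J, with a level of 0 set to 3 UMIs. They were *Gdpd3*, *Gm10709*, *Gm5900*, *Gm10116*, *RP23-299D2.2*, *Clec3b*, *Rbp4*, *Gm17300*, *Gm10093* and *Clmn*. *Gm5900* and *Gm17300* had 0 UMIs in C57BL/6J, so their folds are lower bounds (at least 37.5-fold and at least 15.2-fold higher in B6129PF1/J), and their place in the order is not exact. *Gm10116* had 12.3 against 0.347, and *Gdpd3*, a phospholipase D family enzyme, had 0.754 against 0.0105 (2 UMIs), a ratio of 71.7 (19.5 to 597). Both differed the same way in each of clusters 5, 7, 8 and 9. Of the 170 genes, 19 did so in all 4 of these clusters, 17 of them toward B6129PF1/J, and 19 carried names of predicted genes, whose reads may be shared with near-identical copies. *Ctgf* (connective tissue growth factor) was another of the 17, with 7.49 against 1.12, a ratio of 6.68 (5.78 to 7.75). *Clec3b* (tetranectin) had 0.553 against 0.0210 in cluster 6 and differed the same way in clusters 5 (0.428 against 0.0542) and 8 (0.870 against 0.105), while cluster 7 had 3.78 and 4.25.

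**Figure D3:**
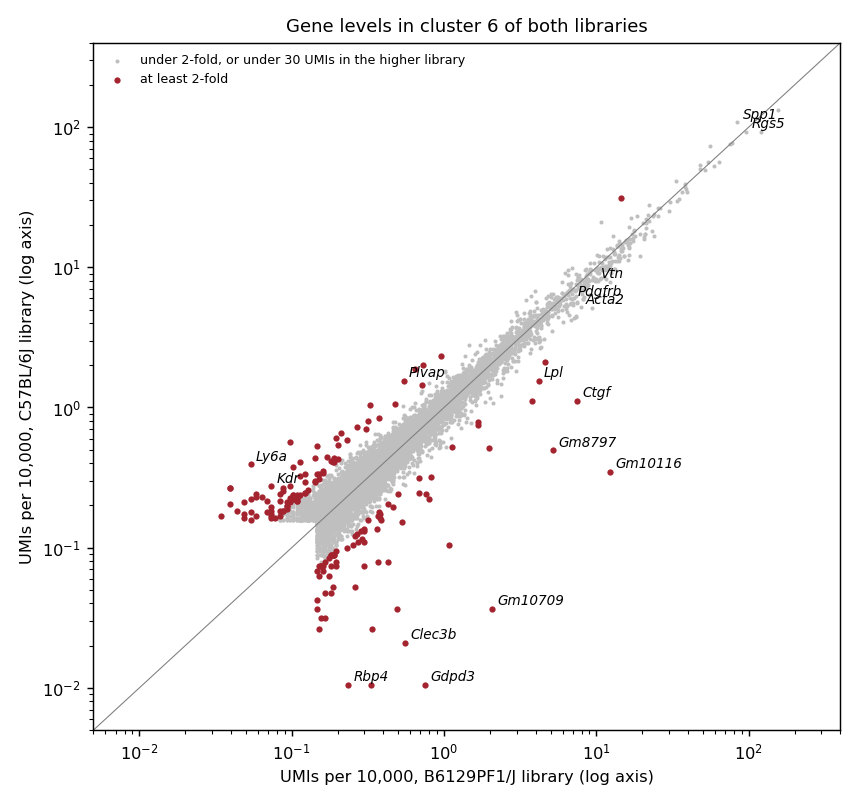
Level of each gene in cluster 6 of the B6129PF1/J library (x axis) and the C57BL/6J library (y axis), in UMIs per 10,000 on log axes, for genes above 0 in both and with at least 30 UMIs in the higher one. Genes that differed at least 2-fold are red (91 toward C57BL/6J and 79 toward B6129PF1/J in all, those at 0 in one library not drawn), and *Rgs5*, *Spp1*, *Vtn* and *Pdgfrb* lie near the diagonal.

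EC markers moved with the C57BL/6J library. Of 8 EC markers, 5 were at least 2-fold higher in C57BL/6J, beside 1.29% of all genes tested. The summed level of the 8, *Emcn* included, was 18.2 in B6129PF1/J and 26.3 in C57BL/6J, with none of the 8 at 0. Of the 91 genes higher in C57BL/6J, 42 had their highest level outside cluster 6 in EC clusters 2 to 4, against 13 of the 79 higher in B6129PF1/J. The share over all genes tested was not counted, so these counts have no background. Without the doubtful cells, 52 of the 91 and 66 of the 79 remained. Since EC genes define part of the doubtful cells, leaving these cells out lowers those genes by construction. *Plvap*, which forms the diaphragms of endothelial fenestrae, went from 0.543 against 1.55 to 0.456 against 0.317, and *Kdr*, a VEGF receptor, from 0.0734 against 0.274 to 0.0461 against 0.0404. *Ctgf* kept its ratio (0.150 with C57BL/6J over B6129PF1/J both with and without these cells). *Emcn* (endomucin) is listed among the EC markers, but cluster 6 had 17.0 and 22.6, with 10.9 and 9.44 in cluster 5 and 34.5 and 34.7 in EC cluster 2, and an *Emcn* UMI was found in 95.9% and 97.8% of cells of cluster 6 (88.0% and 93.2% after thinning) against 14.2% and 22.0% of cluster 11 (8.49% and 13.4%).

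The bulk experiments were used to see the same genes in tissue and in culture. The tables hold the authors' average FPKM (fragments scaled by transcript length and library size) of each group, with no values of single libraries, so no spread is given and no test was run. In whole tissue, fewer cells of a type and less RNA per cell cannot be told apart. Of the 310 genes, 291 had a row, and 247 had at least 1 FPKM in the higher group of the *Ihh* experiment. Their median log2 ratio of deletion to control (with 0.1 FPKM added) was -0.06, beside -0.04 over all 11411 genes with 1 FPKM. Only *Apold1* (19.4 against 7.02 in control) was at least 2-fold higher and only *Tesc* (0.596 against 1.40) was 2-fold lower, both named after their values were seen, beside 117 (1.03%) and 74 (0.648%) of all genes. The control and deletion averages were 69.4 and 57.4 for *Rgs5*, 19.2 and 16.0 for *Pdgfrb*, 10.1 and 11 for *Vtn* and 125 and 83.2 for *Spp1*. These 4 differed by less than 2-fold. *Lamc3*, a marker of the label that cluster 6 shares with cluster 5, was 6.66 in control and 2.39 after deletion, *Gli1* was 9.40 and 3.15, and *Ptch1* was 7.69 and 4.98. The genes lower in cluster 6 than in the stroma had a median log2 ratio of -0.27, the fibroblast list -0.45 and the pericyte list -0.26.

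In cultured GLI1+ cells 16 of 26 genes of the pericyte list had at least 1 FPKM in the higher group, beside 10325 of all 17623 genes. The levels differed widely between genes of the list. *Rgs5* had an average of 0.321 FPKM with DMSO and 0.303 with SAG, *Vtn* 0.0767 and 0.0963, *Abcc9* 0.0450 and 0.0657 and *Lamc3* 0.0537 and 0.0693. Others of the list were well above 1 FPKM: *Cd248* had 84.6 and 72.9, *Pdgfrb* 36.0 and 30.4, *Ednra* 12.4 and 12.4, and *Anpep* 8.76 and 5.90. *Acta2* had 335 and 356. Of the 291 genes, 197 had at least 1 FPKM in the higher group, and their median log2 ratio of SAG to DMSO was 0.02, beside 0.06 over 10325 genes. *Steap4* (31.5 with DMSO, 82.2 with SAG) and the potassium channel subunit *Kcne4* (22.8 and 65.5) were at least 2-fold higher with SAG, beside 38 (0.368%) of all genes. *Parp9*, *Rgs4* and *Susd2* were at least 2-fold lower, beside 114 (1.1%) of all genes, and of these *Rgs4* had 2.89 and 1.14. For comparison, *Gli1* had 0.028 and 3.65 and *Ptch1* 1.13 and 10.1. In the deletion experiment *Steap4* had 4.31 in control and 3.26 after deletion, and *Kcne4* had 2.72 and 2.74.

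**Figure D4:**
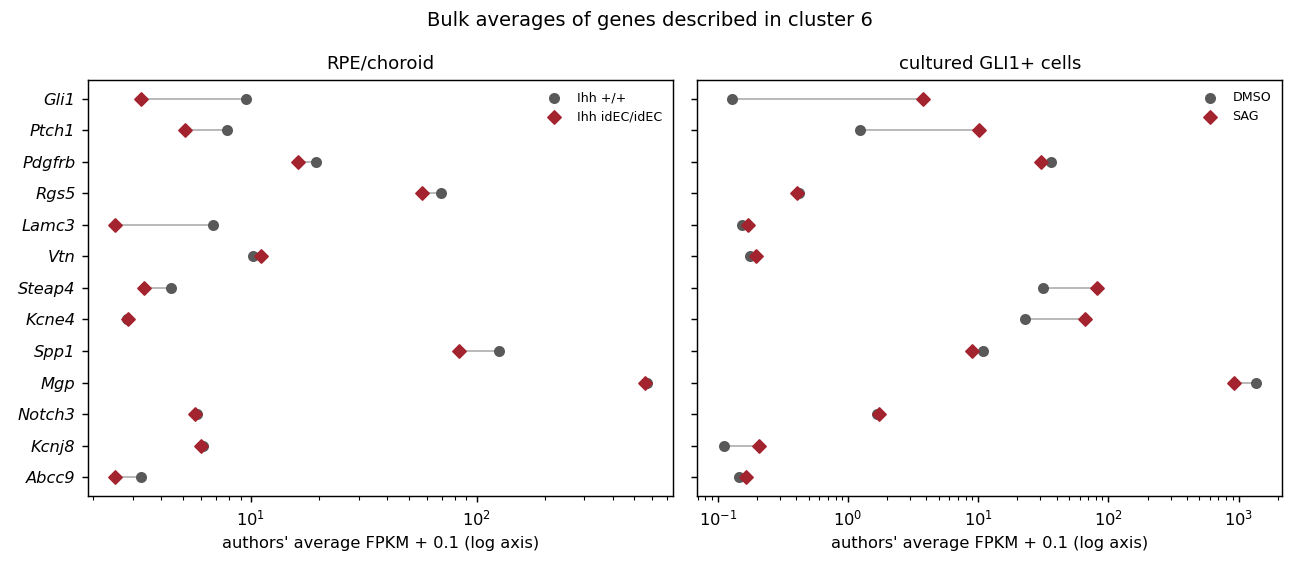
The authors' average FPKM plus 0.1 on a log axis for 13 genes, in RPE/choroid of control and deletion mice (left, grey circles and red diamonds) and in cultured GLI1+ cells with DMSO and SAG (right, grey circles and red diamonds). Each point is 1 average of 3 libraries without error, *Gli1*, *Ptch1* and *Lamc3* are lower after deletion, and *Gli1*, *Ptch1*, *Steap4* and *Kcne4* are higher with SAG.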

How the data were processed

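The scRNAseq counts were deposited by the authors as UMI counts per gene and cell, made with Cell Ranger on mm10 and filtered in Seurat (on UMIs and genes per cell, mitochondrial share, and genes seen in very few cells). The fraction of mitochondrial UMIs per cell and the cluster number (Seurat, both libraries aligned) were deposited by the authors. The FPKM values were deposited by the authors as 1 average per group of 3 libraries (STAR, Cufflinks, mm10), so limma was not possible. The same tables hold the authors' log2 fold changes and adjusted p-values and the cluster tables their cluster comparisons, and none was used.

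Cells were grouped by cluster and library, and UMIs were summed per 10,000. A gene passed at 2-fold in both libraries with 30 UMIs in the higher cluster, and a level of 0 was set to 3 UMIs per library. Doubtful cells (*Xist* with *Ddx3y*, over 10000 UMIs, or 3 UMIs of *Cdh5*, *Pecam1*, *Cldn5*, *Flt1*, *Kdr* and *Plvap*) were kept and no doublets were removed. Subclusters came from 1000 variable genes centred by library, 15 principal components, 20 neighbours and Leiden clustering. Computation used leidenalg 0.10.2, scikit-learn 1.9.0, matplotlib 3.10.9, scipy 1.17.1, numpy 2.4.6 and pandas 2.3.3 under Python 3.11.15. The sum over genes was checked against the deposited UMI total of each of 7565 cells, and the rules were tested on simulated data. Promoters came from RefSeq (GRCm38.p6).

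The members and the 24 gene lists were chosen with earlier results of these data known. Genes were named as the 20 and 10 largest folds against the stroma, 15 and 10 against cluster 9 and 10 between libraries, and as list members that passed or had the highest levels. Alternatives were 3-fold, 10 or 100 UMIs, means over cells, cells thinned to 1700 UMIs, no doubtful cells, each library alone, another scaling between libraries, other resolutions, and in the bulk averages a pseudocount of 1, a minimum of 0.1 FPKM and genes at 3-fold. Some genes that the rule names are not reported here.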

Additional observations from a re-analysis of the deposited data

How the results depend on the processing

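Of 79 values recomputed under the alternatives, 52 stayed close to the value reported and 27 moved. Close means within 1.5 times of a count, within the interval of a level or share, or within 0.1 of a bulk median. Counts, shares and levels have no direction, so a turn of direction was not assessed. At 3-fold, 172 genes were higher and 71 lower than in the stroma, 438 higher and 262 lower than in cluster 9, and 55 differed between the libraries. With a minimum of 100 UMIs these counts were 196, 58, 413, 228 and 41, and with 10 UMIs 221 genes were lower than in the stroma and 640 differed between the libraries. After thinning to 1700 UMIs, 74 genes were lower than in the stroma, 524 higher than in cluster 9 and 259 lower than there. In each of these cases the construction (a larger fold, or fewer or more UMIs) changes how many genes can pass. With 1 library alone, 202 to 233 genes were lower than in the stroma, against 127 in both.

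*Rgs5* in B6129PF1/J was 94.2 as a mean over cells and 93.3 after thinning, and 95.8 in C57BL/6J without doubtful cells. *Pdgfra* in C57BL/6J was 0.0390 after thinning and 0.0519 without doubtful cells. *Acta2* was 6.92 and 6.97 in B6129PF1/J as a mean over cells and after thinning, and 4.79 in C57BL/6J after thinning. A resolution of 0.25 gave 1 subcluster and a resolution of 1 gave 8, so the number of subclusters depends on it.

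No paired analysis was possible because each strain has 1 library, the bulk tables hold averages only, and the results come from no test. Depth limits genes below about 30 UMIs in a cluster, and the depth behind the FPKM averages is unknown.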

Other observations

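Genes of immune signaling separated cluster 6 from smooth muscle more than from stroma. Of 36 immune mediators with a row, 22 were higher in cluster 6 than in cluster 9, beside 12.8% of all genes, and 0 were lower, while against the stroma *Il33* and *Icam1* were lower. *Ccl11* (eotaxin, a chemokine for eosinophils) had 7.55 and 8.53 in cluster 6, 11.2 and 6.24 in cluster 8 and 0.107 and 0.067 in cluster 9. *B2m*, the light chain of MHC class I, had 12.9 and 16.7 against 3.24 and 4.37. The chemokines *Cxcl10* and *Ccl7* were unevenly spread within cluster 6, with 1.97 and 1.31 in subcluster 2 and at most 0.393 and 0.496 in subclusters 1, 3 and 4, and with 1.66 and 0.899 in subcluster 5, which holds most of the doubtful cells.

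Of 18 retinoid genes, 5 were higher than in cluster 9, beside 12.8% of all genes tested, and 8 had 30 UMIs in cluster 6 of both libraries. *Aldh1a2*, which makes retinoic acid, had 2.00 and 2.42 in cluster 6, 1.42 to 3.70 in the other stromal clusters and 0.0901 and 0.167 in cluster 9. Of 16 regulators of G protein signaling, 6 had 30 UMIs in cluster 6 of both libraries. Of the 16, *Rgs4* and *Rgs5* were higher than in the stroma, *Rgs3* and *Rgs16* higher than in cluster 9 and *Rgs6* and *Rgs7bp* lower than there. Over all genes tested the shares were 4.94%, 12.8% and 7.48%. Of 32 solute carriers and transport genes, *Slc38a11*, *Slc5a5*, *Slco3a1* and *Lpl* were higher than in the stroma, beside 4.94% of all genes tested. Of the 32, 14 had 30 UMIs in cluster 6 of both libraries. *Slc5a5*, the sodium iodide symporter, had 0.206 and 0.231 in cluster 6 and 0.0451 and 0.0614 in cluster 9. Of 16 cell cycle genes, 0 passed any comparison between clusters, and only 2 of them had 30 UMIs in cluster 6 of both libraries, the minimum for a gene to count as higher.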
